A study of Mus musculus with 6 samples.

Results

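Genes of negative feedback on ERK signalling and immediate-early genes were described in TKO mESCs grown with serum or with 2i. The members are the protein-coding genes whose GENCODE M21 symbol is Dusp followed by a number, Spry1, Spry2, Spry4, Spred1 to Spred3, Etv1, Etv4, Etv5, Egr1 to Egr4, Fos, Fosb, Fosl1, Fosl2, Jun, Junb, Jund, Ier2, Ier3, Ier5 or Phlda1. The rule took 48 of the 21836 protein-coding genes and 53390 genes of all types with summed values, and Spry3, which the rule also names, was not analysed here. ERK is switched on when growth factor receptors act through RAS and MEK. Active ERK and the serum response factor SRF induce immediate-early genes, which encode transcription factors such as FOS, JUN and EGR1 and need no new protein to be transcribed. ERK also induces its own brakes, among them phosphatases that remove the activating phosphates from MAP kinases and the Sprouty and Spred proteins that act near the receptor and RAS, and in mESCs the FGF4 to ERK pathway primes cells for differentiation.

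TKO mESCs, on the background of the J1 line and grown without feeder cells, lack functional Dnmt1, Dnmt3a and Dnmt3b, so that every sample carried the same 3 inactivated genes. TKO-2i cells were grown in N2B27 medium with the MEK inhibitor PD0325901 at 1 µM, the GSK3 inhibitor CHIR99021 at 3 µM and LIF at 1000 U/ml, whereas TKO-serum cells received DMEM with 15% fetal calf serum and LIF at 500 U/ml. Both groups held 3 samples that the labels call biological replicates of 1 cell line, and p-values measure only the spread between these samples. Both inhibitors, the serum, the basal medium and the LIF dose differed between the groups at once, so their effects cannot be told apart. Poly(A) RNA from 500 ng of total RNA was sequenced with a strand-specific kit, and total estimated counts were 46228700, 44180642 and 43896549 for TKO-2i and 38274042, 51932739 and 44827609 in TKO-serum. CPM, counts scaled to the library size after TMM normalization, compare 1 gene between samples, and TPM, which are also scaled for transcript length, compare levels between genes. A count of 3, taken as the floor, corresponded to 0.0564 to 0.0778 CPM and covers counting error only. The test was the quasi-likelihood test of edgeR over 18177 genes with Benjamini-Hochberg adjustment, and a gene was called at an adjusted p under 0.05. Log2 fold changes are TKO-2i over TKO-serum, given ± SE with 3 samples per group. Within TKO-2i, replicate 2 stood apart, with Pearson r of log2 CPM of 0.9939 and 0.9958 to replicates 1 and 3, against 0.9974 between those. Without it 6328 of 18710 genes tested were called higher and 6240 lower, in place of 5804 and 5557 of 18177, and the cause was not tested.

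Transcripts of the 3 targeted genes were present in every sample. Dnmt1 had 149.6, 154 and 155 CPM in TKO-2i against 129, 129.6 and 129 CPM in TKO-serum. For Dnmt3a the values were 7.14, 7.46 and 7.36 CPM in TKO-2i against 30.2, 29.4 and 30.7 CPM in TKO-serum, and for Dnmt3b they were 19.0, 20.3 and 20.6 CPM in TKO-2i against 43.1, 42.3 and 44.0 CPM in TKO-serum. Both de novo methyltransferase genes were lower in all TKO-2i samples (log2 fold change -2.04 ± 0.059 and -1.11 ± 0.054), while Dnmt1 was higher (0.24 ± 0.048). The call of Dnmt1 was lost under 2 of 15 alternatives, which gave adjusted p from 8.87e-05 to 0.124 by edgeR, DESeq2 or limma. Counts over a whole gene include exons outside an inactivated stretch, so these values do not check the genotype. Markers of mESCs were abundant in both groups. Pou5f1, the gene of the pluripotency factor OCT4, had 1307, 1039 and 1242 CPM in TKO-2i against 1426, 1290.0 and 1352 CPM in TKO-serum and was not called (edgeR adjusted p = 0.0928). It was called lower under 6 of 15 alternatives, which gave adjusted p from 0.000778 to 0.258 by edgeR, DESeq2 or limma. Of the 8 mESC markers 3 were higher and 3 were lower in TKO-2i, 37.5% each against 31.9% and 30.6% of all genes tested. The rises had log2 fold changes of 0.80 ± 0.054 for Klf4, 0.60 ± 0.056 for Nanog and 0.33 ± 0.044 for Esrrb. The falls were -1.33 ± 0.083 for Utf1, -0.41 ± 0.047 for Sox2 and -0.40 ± 0.057 for Zfp42. Nanog lies on chromosome 6, where the median log2 fold change of all genes tested was 0.41.

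Markers of other cell types moved with the medium. All 5 neural markers were lower in TKO-2i (3 of the 3 tested with at least 10 counts in every sample), against 30.6% of all genes tested. Their summed levels were 143, 117 and 137 CPM in TKO-2i against 215, 196 and 205 CPM in TKO-serum. Without Tubb3 the sums were 8.30, 8.09 and 6.61 CPM in TKO-2i against 37.3, 37.9 and 37.6 CPM in TKO-serum. Tubb3 was the most abundant of them by TPM, and the falls included Neurod1 (-5.65 ± 0.16) and Pax6 (-2.46 ± 0.13). Neurod1 had 5, 8 and 8 counts in TKO-2i and passed the filter on low counts through the TKO-serum samples alone, so that it could be tested only because it was higher there. Of 6 primitive endoderm markers 5 were lower and Gata4 was not called (edgeR adjusted p = 0.257), but it was under 3 of 15 alternatives, which gave adjusted p from 0.0174 to 0.828 by edgeR, DESeq2 or limma. The Sox17 call was lost under 2 of 15. The primitive endoderm sums were 9.82, 10.1 and 9.05 CPM in TKO-2i against 30.8, 32.1 and 33.8 CPM in TKO-serum, and by TPM Dab2 was the most abundant in serum and Gata4 in 2i. Without Dab2 these sums were 9.19, 9.37 and 8.35 CPM in TKO-2i against 17.7, 17.4 and 19.6 CPM in TKO-serum. The largest falls were in Dab2 (-4.35 ± 0.11), Sox7 (-4.05 ± 0.22) and Pdgfra (-2.50 ± 0.15), but Sox7, with 4, 7 and 6 counts in TKO-2i, also passed the filter through TKO-serum alone. Mesoderm markers summed to 28.4, 25.9 and 34.3 CPM in TKO-2i against 3.76, 4.17 and 4.13 CPM in TKO-serum, with T the most abundant by TPM in 2i and Eomes in serum. T (5.58 ± 0.32) and Eomes (2.81 ± 0.082) were higher, Tbx6 (-0.76 ± 0.24) was lower, Mixl1 was not called and Mesp1 was not tested. The Tbx6 call was lost under 5 of 15 alternatives, which gave adjusted p from 0.00577 to 0.0951 by edgeR, DESeq2 or limma. Mixl1 gained a call under 2 of 15 alternatives, which gave adjusted p from 0.0379 to 0.155 by edgeR, DESeq2 or limma. The 7 fibroblast or feeder markers summed to 15.4, 12.8 and 11.7 CPM in TKO-2i against 8.69, 8.23 and 7.51 CPM in TKO-serum, with Pdgfrb the most abundant by TPM in 2i and Col1a1 in serum. Without Pdgfrb the other 6 summed to 4.53, 3.39 and 3.85 CPM in TKO-2i against 5.32, 5.53 and 4.35 CPM in TKO-serum. Pdgfrb was higher in TKO-2i (1.62 ± 0.14), Col1a2 was lower (-1.55 ± 0.25) and Col1a1 was not called (edgeR adjusted p = 0.805). The fibroblast genes Lum, Dcn, Postn and Col3a1 were low and not tested, with at most 0.285 CPM in any sample. Dcn had 0, 1 and 0 counts in TKO-2i against 11, 14 and 8 in TKO-serum, and no marker of these lists was at 0 in all 6 samples. In bulk samples fewer cells of a type and less RNA per cell cannot be told apart, and the part of these marker changes in the results on feedback and immediate-early genes was not tested.

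Most of the feedback and immediate-early genes were lower in TKO-2i. Of the 48 members 46 were tested, and 28 were called lower, against 30.6% of all genes tested. A further 9 were called higher, against 31.9% of all genes tested, and 9 were not called. At 2-fold or more 20 members were lower and 3 were higher, against 15.6% and 7.72% of all genes tested. These are 60.9%, 19.6%, 43.5% and 6.52% of the tested members, in the same order. The median log2 fold change of the tested members was -0.68, and that of all 18177 genes was 0.01. Egr3 and Dusp21 were not tested because of low counts. Egr2, Fosl1 and Dusp15 passed the filter on low counts through the TKO-serum samples alone, so that they could be tested only because they were higher there. They are counted among the 28 members called lower and the 20 lower by 2-fold or more. Shares and the median without them are not given here. Spry1, at -0.997 ± 0.072, was just under a 2-fold fall, and Phlda1 at -1.03 ± 0.11 just over it, while Dusp11 at 1.001 ± 0.066 was just over a 2-fold rise and Ier5 at 0.94 ± 0.13 just under it.

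**Figure D1:**
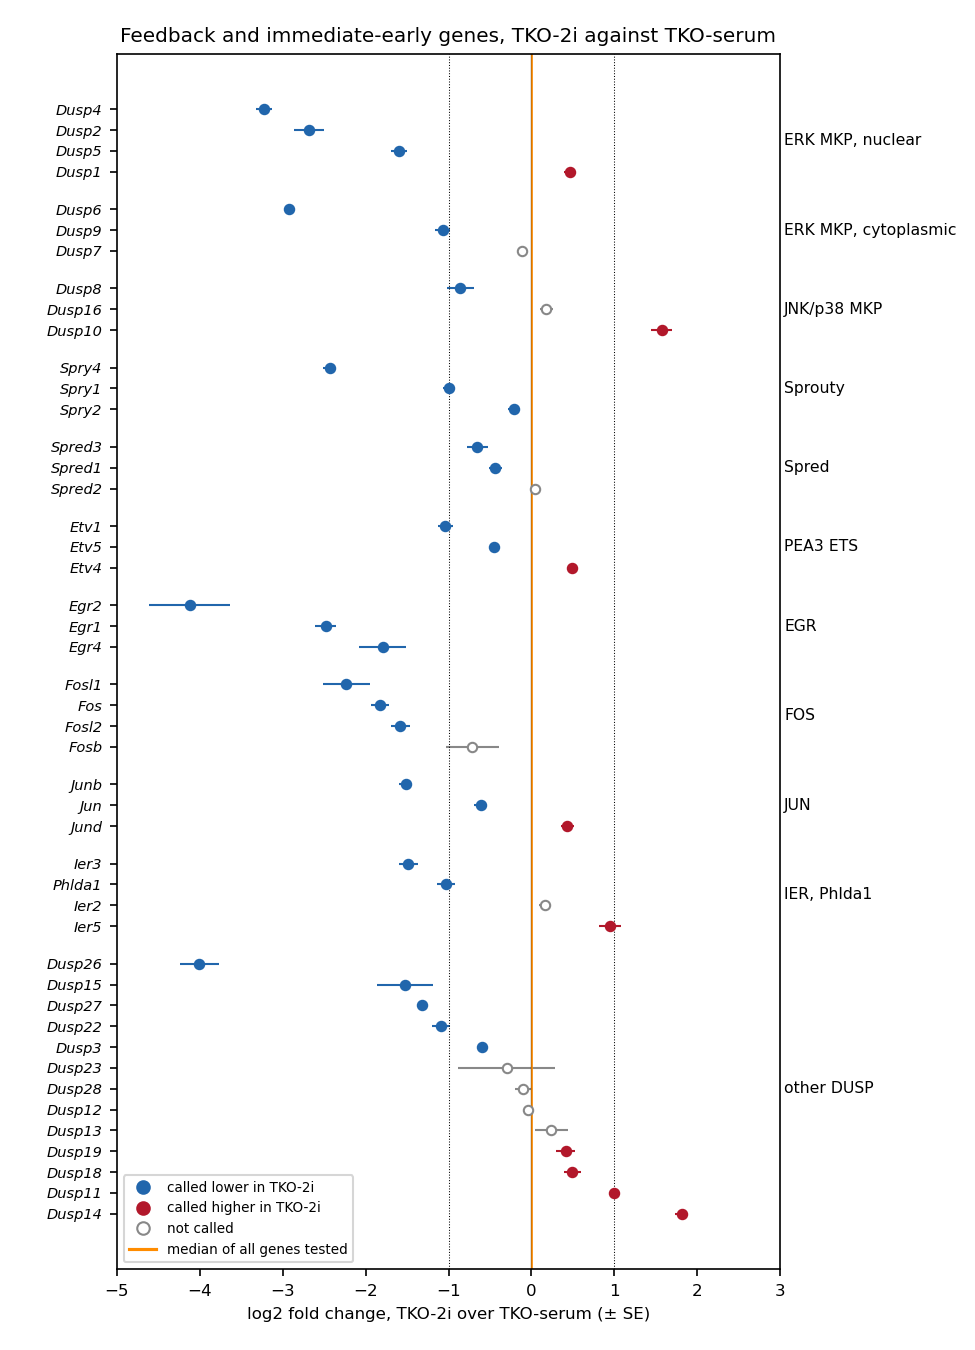
Log2 fold change of each of the 46 tested members, TKO-2i over TKO-serum, grouped by role, with 3 samples per group. Points are edgeR estimates and bars are SE, blue and red mark members called lower and higher, open points were not called, the dotted lines mark 2-fold and the orange line the median of all genes tested, and the estimate for Egr2 rests on 0 to 2 counts per TKO-2i sample.

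The nuclear MAP kinase phosphatases are the inducible enzymes that inactivate ERK, and in part p38 and JNK, in the nucleus. Dusp4, which lies at chr8:34807297-34819894 in GRCm38, had 18.5, 19.7 and 18.4 CPM in TKO-serum against 2.21, 2.05 and 1.78 CPM in TKO-2i. All TKO-2i samples were far below all TKO-serum samples, by 9.35-fold in the fit (log2 fold change -3.23 ± 0.094). Dusp2, known from activated lymphocytes, had 2.52, 2.65 and 2.65 CPM in TKO-serum against 0.469, 0.432 and 0.305 CPM in TKO-2i, a difference of -2.69 ± 0.18. Dusp5, which is specific for ERK, was measured at 12.0, 12.4 and 11.4 CPM in TKO-serum against 4.31, 4.02 and 3.52 CPM in TKO-2i, or -1.59 ± 0.095. The 3 falls had edgeR adjusted p between 6.31e-08 and 4.30e-06. Dusp1, which prefers p38 and JNK, went the other way. It had 40.3, 40.1 and 44.3 CPM in TKO-serum against 57.5, 54.0 and 60.01 CPM in TKO-2i, every TKO-2i sample was above every TKO-serum sample, and the log2 fold change was 0.46 ± 0.062 (edgeR adjusted p = 0.000251). Summed over the 4 genes the level was 45.1, 50.6 and 47.1 TPM in TKO-2i and 50.7, 57.0 and 57.1 TPM in TKO-serum, lower in all TKO-2i samples but with the nearest samples of the groups almost equal, and the sums were not tested. Dusp1 made up 92.2% ± 1.09 in TKO-2i and 61.9% ± 2.20 in TKO-serum (SD, n = 3), and Dusp4 2.17% ± 0.280 in TKO-2i and 19.2% ± 1.16 in TKO-serum.

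Dusp6, Dusp7 and Dusp9 encode the cytoplasmic phosphatases that are selective for ERK. Dusp6, the classical feedback inhibitor of FGF signalling, lies at chr10:99263231-99267489 and had 36.4, 36.8 and 35.3 CPM in TKO-serum against 4.86, 4.64 and 4.83 CPM in TKO-2i. The 3 values of each group were close together and the groups were 7.57-fold apart (-2.92 ± 0.061, edgeR adjusted p = 1.58e-08). Dusp9, the most abundant of the 3 by TPM, had 118, 119 and 119.9 CPM in TKO-serum against 64.3, 55.9 and 49.6 CPM in TKO-2i, and its highest TKO-2i value was still under its lowest TKO-serum value (-1.07 ± 0.089, edgeR adjusted p = 1.43e-05). Dusp7 was also lower in all TKO-2i samples, from 15.6 to 16.3 CPM in TKO-2i against 16.8 to 17.6 CPM in TKO-serum but was not called (-0.11 ± 0.059, edgeR adjusted p = 0.135), although counts from length-scaled TPM gave an edgeR adjusted p of 0.0377 in a range over all alternatives of 0.0377 to 0.350. The summed level of the 3 genes was 37.3, 39.9 and 31.0 TPM in TKO-2i and 87.1, 96.996 and 92.8 TPM in TKO-serum, lower in every TKO-2i sample. Dusp7 accounted for 20.3% ± 2.05 in TKO-2i and 9.76% ± 0.562 in TKO-serum of it, a larger part in 2i.

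Phosphatases that act on JNK and p38 did not share 1 direction. Dusp10 at chr1:184013302-184075636 rose, with 1.61, 1.41 and 1.65 CPM in TKO-serum against 5.13, 4.30 and 4.41 CPM in TKO-2i. Its log2 fold change was 1.57 ± 0.13 (edgeR adjusted p = 1.27e-05), and the groups did not overlap. Dusp16, the most abundant of the 3, had 51.5, 54.0 and 49.1 CPM in TKO-serum against 56.7, 65.1 and 53.1 CPM in TKO-2i and the groups overlapped. It was not called (0.18 ± 0.079, edgeR adjusted p = 0.0811), but it passed the threshold without TKO-2i replicate 3 (edgeR adjusted p = 0.0342), with counts from length-scaled TPM (0.0292) and with the replicate block (0.00814), and its edgeR, DESeq2 or limma adjusted p over all alternatives ran from 0.00814 to 0.442. Dusp8 was lower (-0.86 ± 0.16), at 1.09 to 1.29 CPM in TKO-2i against 1.84 to 2.41 CPM in TKO-serum.

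Sprouty proteins are induced by receptor signalling and restrain the path from the receptor to RAS. Spry4 had 195, 200.1 and 201 CPM in TKO-serum against 33.8, 35.4 and 41.1 CPM in TKO-2i, 5.41-fold lower in TKO-2i (-2.43 ± 0.079, edgeR adjusted p = 1.00e-07). Spry1 fell to 8.68, 8.69 and 9.71 CPM in TKO-2i from 18.02, 17.4 and 18.6 CPM in TKO-serum (-0.997 ± 0.072). For Spry2 the values were 47.7, 45.8 and 44.3 CPM in TKO-serum against 42.1, 35.9 and 40.6 CPM in TKO-2i. The Spry2 groups did not overlap, but the difference was small (-0.21 ± 0.068, edgeR adjusted p = 0.0231), and the call was lost when TKO-2i replicate 3, TKO-serum replicate 1 or TKO-serum replicate 2 was left out, with edgeR adjusted p of 0.0598, 0.0944 and 0.0670. Over all alternatives the adjusted p of Spry2 from edgeR, DESeq2 or limma ran from 0.00188 to 0.0944. Per length, Spry4 was the more abundant of the pair in serum and Spry2 in 2i. Spry4 had 10.9 ± 1.11 TPM in TKO-2i and 63.0 ± 3.65 TPM in TKO-serum (SD, n = 3), and Spry2 had 31.1 ± 0.537 TPM in TKO-2i and 39.2 ± 1.59 TPM in TKO-serum. Spry4 thus made up 22.7% ± 1.83 in TKO-2i and 54.7% ± 1.00 in TKO-serum of the summed Sprouty TPM.

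Spred proteins bring neurofibromin, the RAS GTPase-activating protein encoded by Nf1, to the membrane. The most abundant gene, Spred2, had 84.7, 86.9 and 85.6 CPM in TKO-serum against 85.6, 95.9 and 84.3 CPM in TKO-2i. Its groups overlapped and it was not called (0.05 ± 0.063, edgeR adjusted p = 0.540). It lies on chromosome 11, where the median log2 fold change of all genes tested was 0.26. Spred1 (-0.43 ± 0.082) and Spred3 (-0.65 ± 0.13) were called lower, and for Spred3 the call was lost with limma on log2(TPM + 0.1), with a limma adjusted p of 0.0667 in a range over all alternatives of 0.000157 to 0.0667. The summed Spred level was 44.4, 54.8 and 45.5 TPM in TKO-2i and 52.6, 59.4 and 56.1 TPM in TKO-serum.

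Etv1, Etv4 and Etv5 encode the PEA3 subfamily of ETS transcription factors, which are induced by FGF signalling and act on its targets. Etv5 at chr16:22381309-22439719 was the most abundant member by TPM in serum and came after Jund in 2i, with 133 ± 8.46 TPM in TKO-2i and 194 ± 9.07 TPM in TKO-serum (SD, n = 3). It had 553, 558 and 553 CPM in TKO-serum against 406, 402 and 409.9 CPM in TKO-2i, without overlap, and was lower (-0.45 ± 0.043, edgeR adjusted p = 3.08e-05). Etv1 fell by more from a lower level, with 18.9, 20.3 and 18.1 CPM in TKO-serum against 8.26, 10.05 and 9.64 CPM in TKO-2i (-1.04 ± 0.090, edgeR adjusted p = 1.76e-05). Etv4 was higher in all TKO-2i samples, with 67.1, 64.9 and 67.9 CPM in TKO-serum against 96.3, 88.6 and 95.2 CPM in TKO-2i (0.49 ± 0.055). It too lies on chromosome 11. The summed TPM of the subfamily was 204, 226 and 202 TPM in TKO-2i and 242, 269 and 254 TPM in TKO-serum, and Etv4 made up 35.1% ± 0.338 in TKO-2i and 20.8% ± 0.543 in TKO-serum of it.

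EGR genes encode zinc finger transcription factors that growth factors induce within minutes. Egr1 made up 96.02% ± 2.39 in TKO-2i and 97.5% ± 0.186 in TKO-serum of the summed EGR TPM. It had 103, 104 and 98.5 CPM in TKO-serum against 15.3, 16.6 and 22.6 CPM in TKO-2i, and TKO-2i replicate 3 was the highest of its group but still far under the TKO-serum samples. The log2 fold change was -2.48 ± 0.13 (edgeR adjusted p = 1.05e-06). Egr4 had 0.752, 0.902 and 0.805 CPM in TKO-serum against 0.268, 0.296 and 0.141 CPM in TKO-2i (-1.79 ± 0.28, edgeR adjusted p = 0.000618), although the median of its chromosome 6 was 0.41. Egr2 was at the limit of detection in 2i, with 2, 2 and 0 counts against 23, 27 and 29 counts in TKO-serum. In CPM these were 0.596, 0.507 and 0.631 CPM in TKO-serum against 0.0446, 0.0455 and 0 CPM in TKO-2i. The ratio of the summed counts, corrected for library size, was 18.8 TKO-serum over TKO-2i (exact 95% interval 7.08 to 70.9, counting error only). Egr2 passed the filter on low counts through the TKO-serum samples alone, so that it could be tested only because it was higher there. It was called lower (edgeR adjusted p = 0.000117), but its TKO-2i counts were assigned to other transcripts than those in serum. With counts from length-scaled TPM the log2 fold change was -1.90 and the edgeR adjusted p 0.0528, in a range of adjusted p over all alternatives of 1.75e-06 to 0.0528. Egr3 had 1 count in each TKO-2i sample and 4, 6 and 4 counts in TKO-serum, a ratio of 4.45 with an exact 95% interval of 1.24 to 24.2, and was not tested.

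FOS proteins pair with JUN proteins to form AP-1. Fos, the prototype of the immediate-early genes, had 4.80, 4.76 and 4.90 CPM in TKO-serum against 1.27, 1.36 and 1.43 CPM in TKO-2i. The TKO-2i samples were all under the TKO-serum samples, 3.55-fold in the fit (-1.83 ± 0.11). Fosl2 had 4.54, 5.26 and 5.14 CPM in TKO-serum against 1.70, 1.59 and 1.71 CPM in TKO-2i (-1.58 ± 0.11), and Fosl1, a known ERK-dependent gene, had 0.674, 0.977 and 0.827 CPM in TKO-serum against 0.223, 0.136 and 0.164 CPM in TKO-2i (-2.23 ± 0.29). The falls of Fos and Fosl2 had edgeR adjusted p of 2.16e-06 and 5.95e-06. Fosl1 (edgeR adjusted p = 0.000181) passed the filter on low counts through the TKO-serum samples alone. It could thus be tested only because it was higher there. Fosb was under 1 CPM in all samples, overlapped between groups and was not called (-0.71 ± 0.32, edgeR adjusted p = 0.0837). FOS genes were low throughout, with a sum of 1.64, 2.08 and 1.74 TPM in TKO-2i and 5.67, 6.67 and 6.02 TPM in TKO-serum.

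JUN genes together were much more abundant, with a sum of 162, 172 and 148 TPM in TKO-2i and 164, 162 and 164 TPM in TKO-serum, and the sums of the groups overlapped. Jund made up 91.0% ± 0.578 of the sum in TKO-2i and 75.3% ± 0.279 in TKO-serum (SD, n = 3). Jun alone was low, with 2.91 ± 0.152 TPM in TKO-2i and 4.89 ± 0.279 TPM in TKO-serum. Jund, whose product is known to be less dependent on growth factors than the others, had 97.9, 86.2 and 90.3 CPM in TKO-serum against 136, 115 and 119 CPM in TKO-2i and was higher in 2i (0.43 ± 0.079, edgeR adjusted p = 0.00143). Junb at chr8:84974484-84978718 had 44.5, 39.1 and 40.2 CPM in TKO-serum against 14.5, 13.4 and 15.2 CPM in TKO-2i. It fell 2.86-fold (-1.52 ± 0.074, edgeR adjusted p = 6.77e-07). Jun ranged from 6.07 to 6.69 CPM in TKO-2i against 9.60 to 10.02 CPM in TKO-serum (-0.61 ± 0.075). The antisense neighbour of Junb, Prdx2, had means of 291 CPM for TKO-2i against 273 CPM in TKO-serum and was not called (edgeR adjusted p = 0.419), and which strand was counted is not given in the sources used here. Jun and Junb were lower and Jund higher without overlap, and Junb made up 7.14% ± 0.519 in TKO-2i and 21.7% ± 0.275 in TKO-serum of the summed JUN TPM.

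Ier2, Ier3, Ier5 and Phlda1 are short genes induced early by serum and growth factors. Ier2 was the most abundant by TPM and had 112, 104 and 109 CPM in TKO-serum against 129.5, 109 and 125 CPM in TKO-2i. Its groups overlapped and it was not called (0.16 ± 0.073, edgeR adjusted p = 0.0813), but it passed the threshold with the replicate block (edgeR adjusted p = 0.00968) and, without TKO-2i replicate 2, at a log2 fold change of 0.24 (edgeR adjusted p = 0.00281, range over all alternatives 0.00281 to 0.825). Ier3, which modulates survival and ERK dephosphorylation, had 9.52, 9.08 and 8.46 CPM in TKO-serum against 2.77, 3.30 and 3.61 CPM in TKO-2i (-1.48 ± 0.11, edgeR adjusted p = 8.25e-06). Phlda1, a pleckstrin homology-like gene, had 3.94, 4.06 and 3.85 CPM in TKO-serum against 2.03, 1.80 and 1.97 CPM in TKO-2i (-1.03 ± 0.11, edgeR adjusted p = 5.91e-05). Ier5 was higher in 2i, at 6.91 to 8.26 CPM against 3.39 to 4.59 CPM (0.94 ± 0.13). Ier3 and Phlda1 were low and Ier5 high in all TKO-2i samples.

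**Figure D2:**
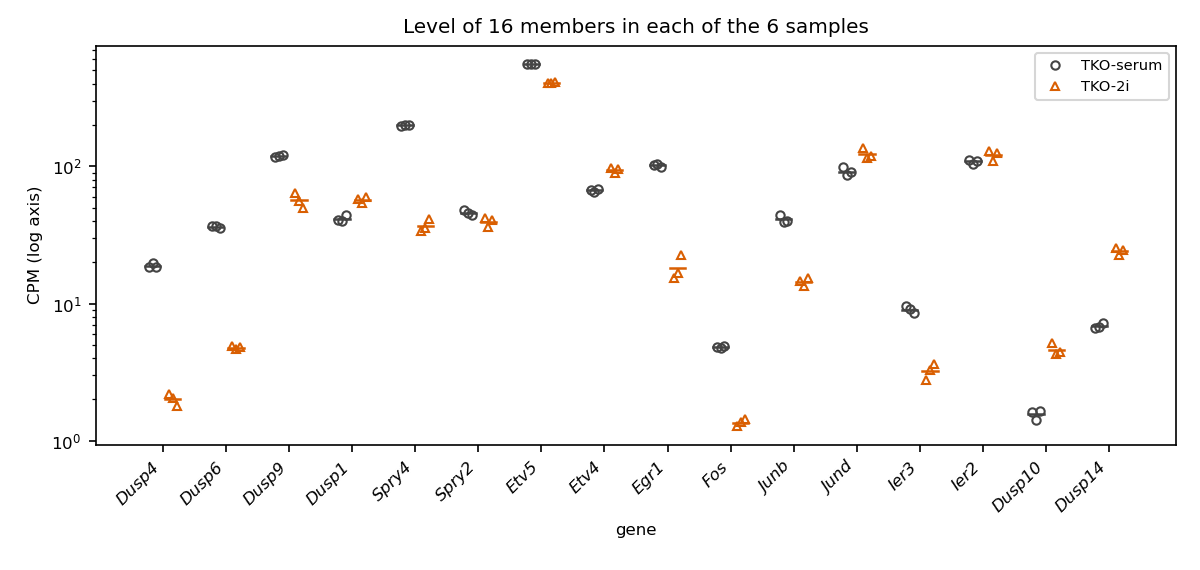
CPM on a log axis of 16 members in each of the 3 TKO-serum and 3 TKO-2i samples, with bars at the group means. The genes were chosen after their values were seen, to show falls, rises and small differences; Dusp6 is 7.57-fold lower in TKO-2i and Dusp14 3.51-fold higher, while Ier2 overlaps between the groups.

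The other 14 DUSP genes encode mostly small phosphatases that lack the MAP kinase docking domain, and several do not act on MAP kinases. Of the 13 tested, 5 were lower (38.5%, against 30.6% of all genes tested), 4 were higher (30.8%, against 31.9%) and 4 were not called. At 2-fold or more 30.8% were lower and 15.4% were higher, against 15.6% and 7.72% of all genes tested. Those lower include Dusp15, which passed the filter on low counts through the TKO-serum samples alone. The median log2 fold change was -0.10, and alternatives gave -0.19 to 0.06, with the sign turned by a minimum of 10 counts in every sample. Without TKO-2i replicate 2, TKO-serum replicate 1 or TKO-serum replicate 3 it was -0.03, -0.07 and -0.05. Dusp26, a phosphatase best known from brain and neuroendocrine tissue, had 5.47, 3.93 and 5.07 CPM in TKO-serum against 0.379, 0.205 and 0.305 CPM in TKO-2i. It showed the largest fitted fall after Egr2 among the tested members (-4.01 ± 0.23, edgeR adjusted p = 1.73e-06), and its TKO-2i samples held 17, 9 and 13 counts. Dusp27, whose product is thought to be catalytically inactive, had 108, 106 and 106 CPM in TKO-serum against 43.7, 41.4 and 43.0 CPM in TKO-2i (-1.32 ± 0.049). Dusp22, a regulator of JNK signalling, had 4.80, 4.9998 and 4.59 CPM in TKO-serum against 2.41, 2.23 and 2.11 CPM in TKO-2i (-1.09 ± 0.10). Dusp15 was low in both groups, with 0.389, 0.414 and 0.522 CPM in TKO-serum against 0.201, 0.159 and 0.0938 CPM in TKO-2i (-1.52 ± 0.33). All 4 genes had separate groups, and Dusp26, Dusp27 and Dusp22 had edgeR adjusted p between 1.87e-07 and 3.30e-05. Dusp15 (edgeR adjusted p = 0.00380) could be tested only because it was higher in TKO-serum.

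Dusp14 rose well over 2-fold and Dusp11 only just 2-fold. Dusp14 at chr11:84048041-84069261, a negative regulator of MAP kinase and T cell receptor signalling, had 6.64, 6.71 and 7.20 CPM in TKO-serum against 25.3, 22.4 and 24.5 CPM in TKO-2i, 3.51-fold higher in 2i (1.81 ± 0.074, edgeR adjusted p = 2.85e-07). Dusp11, which removes phosphates from the 5′ end of RNA rather than from MAP kinases, had 64.3, 67.9 and 64.1 CPM in TKO-serum against 123, 141 and 128 CPM in TKO-2i (1.001 ± 0.066, edgeR adjusted p = 3.69e-06). Neither gene had overlapping groups. Dusp18 (0.49 ± 0.10) and Dusp19 (0.41 ± 0.11) were higher by less, and both calls depended on the method, since with limma on log2(TPM + 0.1) the adjusted p was 0.0722 for Dusp18 and 0.175 for Dusp19. Over all alternatives the adjusted p from edgeR, DESeq2 or limma ran from 0.00166 to 0.0722 for Dusp18 and from 0.00389 to 0.181 for Dusp19. Dusp19 also shares its locus with Nup35 on the same strand. Dusp3 was lower (-0.60 ± 0.063). Dusp12, Dusp13, Dusp23 and Dusp28 were not called, with log2 fold changes from -0.30 to 0.24, and only for Dusp12 did alternatives give a call (limma on log2(TPM + 1) and on log2(TPM + 0.1), adjusted p = 0.0360 and 0.0367, range over all alternatives 0.0360 to 0.839). The groups overlapped for all of these but Dusp13, and Dusp21 had 0 counts in all 6 samples, which allows at most 0.0778 CPM in the shallowest library.

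Several of the members that rose lie on chromosomes 6 and 11. Genes on chromosomes 6 and 11 as a whole had medians above 0 in TKO-2i over TKO-serum, with log2 fold changes of 0.41 over 866 and 0.26 over 1399 genes tested. The medians of the other 18 chromosomes with at least 50 genes tested lay between -0.15 and 0.049. On chromosomes 6 and 11 lie 8 members, of which 4 were higher (Dusp11, Dusp14, Dusp18 and Etv4), 2 were lower (Dusp3 and Egr4) and 2 were not called (Dusp16 and Spred2). Of all genes tested 53.6% on chromosome 6 and 51.8% on chromosome 11 were higher, and 19.5% and 19.9% were lower, against 50.0% higher and 25.0% lower among the 8 members. Of the 38 tested members on other chromosomes, 26 were lower (68.4%) and 5 were higher (13.2%), against 32.1% and 29.0% of the 15912 genes tested there, and their median log2 fold change was -1.01 (alternatives -1.08 to -0.55, the smallest with limma on log2(TPM + 1)). The part of the chromosome-wide difference in the rises of Dusp11, Dusp14, Dusp18 and Etv4 was not tested.

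Levels per length differed widely between members. In TKO-serum 21 of the 48 members had a mean of at least 10 TPM and 11 were under 1 TPM, and in TKO-2i the counts were 16 and 14. In serum the order began with Etv5 (194 ± 9.07 TPM, SD, n = 3), Jund (123 ± 0.830), Ier2 (114 ± 1.86), Spry4 (63.0 ± 3.65) and Dusp9 (58.4 ± 3.63), and Spry4 and Dusp9 differed by little more than 1 SD. In 2i it began with Jund (146 ± 11.4 TPM), Etv5 (133 ± 8.46), Ier2 (115 ± 2.91), Etv4 (73.9 ± 4.42) and Dusp11 (54.2 ± 3.27). The ranges of Jund and Etv5 overlapped there, with Jund above Etv5 in each sample. Egr1 had 48.7 ± 2.79 TPM in serum and 8.08 ± 1.54 TPM in 2i.

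Most members had the same leading transcript in both groups. Of 38 members with a mean of at least 1 TPM, 27 have over 1 transcript in the quantified set, and in 26 of these the same transcript had the highest mean TPM in both groups. The exception was Spry1, where Spry1-201 and Spry1-203, both protein-coding, led in different groups. Spry1-201 held 49.5, 47.4 and 45.7% in TKO-2i and 46.1, 59.4 and 47.7% in TKO-serum of the TPM of the gene, and Spry1-203 48.2, 49.9 and 51.7% in TKO-2i and 49.3, 32.4 and 39.9% in TKO-serum. The samples of the groups overlapped for both. Egr1-202 carried 92.8, 93.0 and 92.1% in TKO-2i and 91.6, 91.6 and 90.4% in TKO-serum of the Egr1 TPM, and Etv5-201 97.3, 88.7 and 89.6% in TKO-2i and 95.1, 93.4 and 98.2% in TKO-serum of that of Etv5. In Dusp14, Dusp14-202 led in all samples with 75.7, 66.6 and 63.7% in TKO-2i and 92.6, 78.7 and 75.7% in TKO-serum. Dusp14-205 was estimated only in 2i, with 5.75, 21.7 and 22.8% in TKO-2i and 0, 0 and 0% in TKO-serum. For Fosl2 the leading transcript was the retained intron Fosl2-203, with 41.8, 64.0 and 58.3% in TKO-2i and 64.1, 56.6 and 49.8% in TKO-serum. Shares are estimates from reads divided between transcripts and were not tested.

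The median span of the tested members was below that of protein-coding genes, although single members spanned up to 99.7 kb. The most abundant transcript of the 46 tested members spanned a median of 7.05 kb and 3.5 exons, against 18.9 kb and 8 exons over 15085 protein-coding genes tested. For the 20 members lower by 2-fold or more the median span was 4.86 kb, and for the other 26 it was 8.59 kb. By class median the JUN genes were the shortest, each with 1 exon and a median of 1.81 kb, although Ier3 was shorter at 1.24 kb. The PEA3 genes had 13 exons each and a median of 58.4 kb. These are descriptions, and length was not tested against the fold changes.

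Genes of the cascade that leads to ERK were mixed. Of 27 cascade genes 10 were higher (37.0%, against 31.9% of all genes tested), 3 were lower (11.1%, against 30.6%) and 14 were not called, with a median log2 fold change of 0.10 that was -0.02 with limma on log2(TPM + 1) or log2(TPM + 0.1). Over the alternatives 7 to 14 were higher and 2 to 5 were lower, and the calls of Mras and Sos2 were lost under 2 and 4 of 15. Map2k1 and Map2k2, which encode MEK1 and MEK2, the targets of PD0325901, were higher. Map2k1 had 102, 102 and 106 CPM in TKO-serum against 126, 118 and 118 CPM in TKO-2i (0.22 ± 0.053, edgeR adjusted p = 0.00580), and Map2k2 had 82.2, 74.3 and 80.5 CPM in TKO-serum against 106, 88.9 and 106 CPM in TKO-2i (0.34 ± 0.081, edgeR adjusted p = 0.00568). The Map2k1 call was lost under 2 of 15 alternatives, which gave adjusted p from 0.00163 to 0.175 by edgeR, DESeq2 or limma. Mapk3, the gene of ERK1, had 58.7, 56.9 and 62.4 CPM in TKO-serum against 49.8, 43.0 and 46.0 CPM in TKO-2i and was lower (-0.36 ± 0.066). The largest rise was in Ksr1, a scaffold of the cascade (1.38 ± 0.085). Ksr1 lies on chromosome 11, where the median was 0.26, and 5 of the 10 higher cascade genes lie on chromosomes 6 or 11. The falls were in the adaptor gene Gab1 (-0.71 ± 0.048), Mapk3 and the ERK-activated kinase gene Rps6ka3 (-0.36 ± 0.11), whose call was lost under 2 of 15 alternatives, which gave adjusted p from 2.45e-05 to 0.0613 by edgeR, DESeq2 or limma.

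Other genes known as ERK outputs were mixed. Of 14 genes 12 were tested, 6 were lower (50.0%, against 30.6% of all genes tested) and 3 were higher (25.0%, against 31.9%), with a median log2 fold change of -0.26 (-0.44 to -0.23 over the alternatives), and the call of Tnfrsf12a was lost under 2 of 15. Myc (-1.14 ± 0.063), the urokinase receptor gene Plaur (-0.99 ± 0.10) and Epha2 (-0.91 ± 0.047) fell most. Myc had 49.9, 49.2 and 46.2 CPM in TKO-serum against 22.9, 20.4 and 22.6 CPM in TKO-2i. The rises were in Epha4 (0.90 ± 0.077), the cyclin gene Ccnd1 (0.52 ± 0.061) and Tfap2c (0.51 ± 0.070). Among 20 other immediate-early genes 18 were tested, 8 were lower (44.4%) and 5 were higher (27.8%), with a median of -0.17 and -0.39 to -0.13 over the alternatives. Without TKO-2i replicate 1, TKO-2i replicate 2 or TKO-serum replicate 1 the median was -0.29, -0.33 and -0.31. Of the calls that of Klf6 was lost under 2 of 15 alternatives. The SRF and YAP target Ccn1 (-2.25 ± 0.11), Ccn2 (-1.27 ± 0.086) and the mRNA decay factor Zfp36 (-1.27 ± 0.080) fell most, and Ccn1 had 11.02, 11.1 and 11.2 CPM in TKO-serum against 2.34, 2.00 and 2.67 CPM in TKO-2i. Rhob (1.53 ± 0.082), Atf3 (1.198 ± 0.14) and Gadd45b (0.82 ± 0.078), all known to respond to stress as well, rose most, with 20.6, 20.0 and 21.9 CPM in TKO-serum against 67.7, 56.3 and 56.9 CPM in TKO-2i for Rhob. These falls and rises had edgeR adjusted p between 6.58e-07 and 0.000283.

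**Figure D3:**
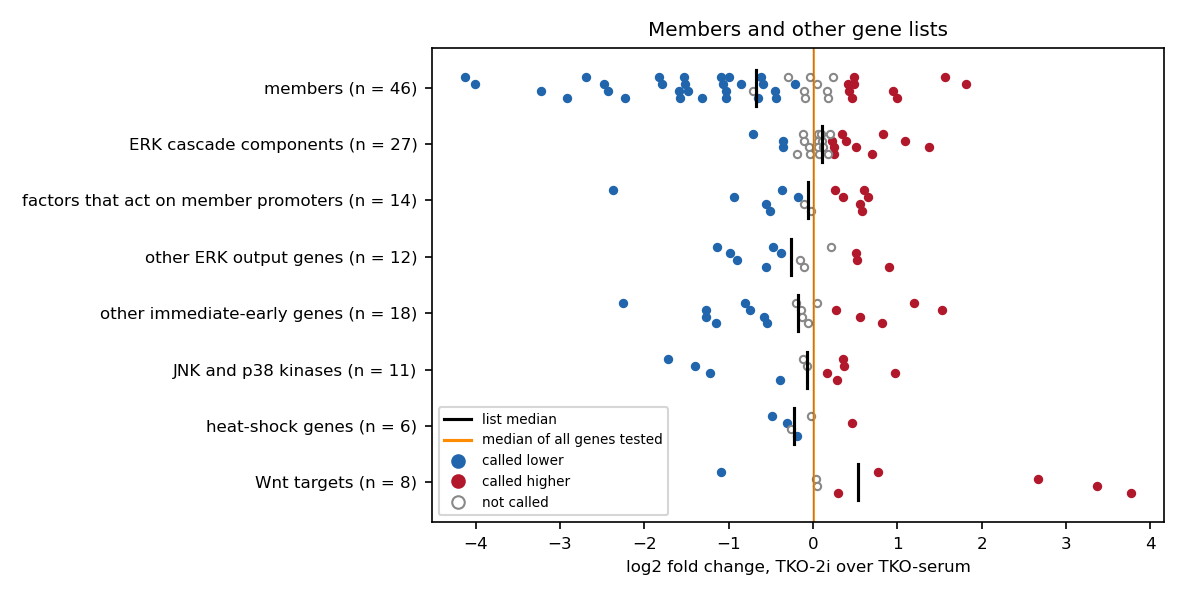
Log2 fold change of every tested gene of the members and of 7 other lists, TKO-2i over TKO-serum. Blue and red points were called lower and higher, open points were not called, black bars are list medians and the orange line is the median of all genes tested; the members have a median of -0.68.

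Genes of transcription factors that act on promoters of this group were also mixed. Of 14 such genes 6 were lower and 6 were higher, 42.9% each against 30.6% and 31.9% of all genes tested (median -0.06, alternatives -0.18 to -0.04). The call of Crem, 1 of the 6 higher, was lost under 11 of 15 alternatives with adjusted p by edgeR, DESeq2 or limma up to 0.181, and those of Erf and Elk1 under 2 each. The median was -0.04 without TKO-2i replicate 1 and -0.10 without TKO-2i replicate 2. The ETS factor gene Ets1 (-2.37 ± 0.16), Atxn1l, a partner of the repressor CIC (-0.94 ± 0.10), and Srf (-0.56 ± 0.069) fell most. Srf had 49.4, 45.5 and 46.7 CPM in TKO-serum against 33.7, 29.1 and 33.4 CPM in TKO-2i. Elk3 (0.65 ± 0.091), Elk4 (0.61 ± 0.12) and Cic (0.58 ± 0.050) rose most, and Cic, whose product represses Etv1, Etv4, Etv5 and Dusp6 when ERK is inactive, had 164, 163 and 172 CPM in TKO-serum against 245, 247 and 256 CPM in TKO-2i. Of 11 JNK and p38 kinase genes 5 (45.5%) were higher and 4 (36.4%) were lower (median -0.06, alternatives -0.15 to -0.04, -0.04 without TKO-serum replicate 2), with the largest falls in Mapk12 (-1.72 ± 0.085), Mapk11 (-1.40 ± 0.089) and Mapk10 (-1.23 ± 0.23) and the largest rises in Map2k6 (0.98 ± 0.063), Map2k7 (0.37 ± 0.046) and Map2k3 (0.36 ± 0.052). Of the 5 higher genes 4, Map2k3, Map2k4, Map2k6 and Mapk9, lie on chromosome 11, where the median of all genes tested was 0.26. The call of Map2k4, which was higher, was lost under 8 of 15 alternatives, that of Mapk13, which was lower, under 3 and that of Mapk9, which was higher, under 2.

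Immediate-early genes are also known to respond to the handling of cells, as heat-shock genes do. Of 6 heat-shock genes 3 (50.0%) were lower and 1 (16.7%) was higher, against 30.6% and 31.9% of all genes tested (median -0.23, -0.14 without TKO-2i replicate 2). Their sums were 3192, 2854 and 3193 CPM in TKO-2i against 3611, 3587 and 3457 CPM in TKO-serum. Hspb1 (-0.49 ± 0.096), Hsph1 (-0.31 ± 0.054) and Hspa8 (-0.19 ± 0.053) fell and Dnajb1 rose (0.46 ± 0.081). The Hspa8 call was lost without TKO-serum replicate 2, in 1 of 15 alternatives, which gave adjusted p from 0.00182 to 0.0640 by edgeR, DESeq2 or limma. The most abundant was Hspa8, the inducible Hspa1a and Hspa1b were not called (Hspa1a was with limma on log2(TPM + 1)), and the part of handling in the immediate-early results was not tested. Wnt targets, listed because 2i holds a GSK3 inhibitor, were higher for 5 of 8 genes (62.5%, against 31.9% of all genes tested) and lower for 1 (median 0.54). The effect of that inhibitor cannot be told apart from those of the other differences in medium. Of the 5 higher genes 4, Axin2, Rnf43, Tcf7 and Znrf3, lie on chromosome 11, where 51.8% of genes tested were higher, and the call of Znrf3 was lost under 2 of 15 alternatives. Axin2 had 11.9, 11.9 and 11.7 CPM in TKO-serum against 118, 112 and 137 CPM in TKO-2i (3.37 ± 0.086). Sp5 (3.77 ± 0.22) and Rnf43 (2.67 ± 0.21) also rose, and Lef1 fell (-1.09 ± 0.19).

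Promoters of RefSeq (GRCm38.p6), from 250 bases before to 50 after the start of transcription, were at hand for 35 of the 48 members, or 72.9%, under the 80% set for a comparison of the members as a set with other genes, which is therefore void. Those without an entry are Dusp4, Dusp9, Dusp15, Dusp19, Dusp21, Dusp26, Spry4, Etv4, Egr1, Egr3, Fosl1, Ier2 and Phlda1. They were searched on both strands for the CArG box bound by SRF, the CRE TGACGTCA bound by CREB and ATF factors, the AP-1 motif TGANTCA and the ETS motif CCGGAAGT. No motif of the 4 is contained in another. Of 32851 promoters of all genes, 1.63% held a CArG box, 1.79% a CRE, 7.81% an AP-1 motif and 3.89% the ETS motif. Among the members a CArG box was found in Dusp5 and Egr2, a CRE in Dusp1 and Dusp8, an AP-1 motif in Dusp13 and the ETS motif in none. Shown are the 250 bases before the start in Dusp5 and Egr2, which fell, in Dusp8, which fell by less, and in Dusp1, which rose, as the members with a CArG box or CRE, each 5′ to 3′ on the strand of the gene with the motif in capitals.
Dusp5: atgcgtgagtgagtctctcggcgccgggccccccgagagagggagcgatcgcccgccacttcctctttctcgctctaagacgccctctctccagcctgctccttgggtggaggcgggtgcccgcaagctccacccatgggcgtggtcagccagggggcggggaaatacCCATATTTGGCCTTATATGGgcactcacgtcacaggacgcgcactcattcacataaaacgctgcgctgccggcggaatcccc
Egr2: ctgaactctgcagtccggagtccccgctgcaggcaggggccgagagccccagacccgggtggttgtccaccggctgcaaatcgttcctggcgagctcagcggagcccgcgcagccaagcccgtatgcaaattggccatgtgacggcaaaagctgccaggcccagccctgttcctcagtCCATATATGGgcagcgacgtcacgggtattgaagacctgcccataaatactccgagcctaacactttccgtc
Dusp1: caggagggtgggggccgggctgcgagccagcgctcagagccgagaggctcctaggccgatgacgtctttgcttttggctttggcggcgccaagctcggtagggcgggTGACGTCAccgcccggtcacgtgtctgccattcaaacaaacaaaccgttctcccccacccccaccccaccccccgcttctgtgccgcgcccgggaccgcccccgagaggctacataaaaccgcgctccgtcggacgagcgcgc
Dusp8: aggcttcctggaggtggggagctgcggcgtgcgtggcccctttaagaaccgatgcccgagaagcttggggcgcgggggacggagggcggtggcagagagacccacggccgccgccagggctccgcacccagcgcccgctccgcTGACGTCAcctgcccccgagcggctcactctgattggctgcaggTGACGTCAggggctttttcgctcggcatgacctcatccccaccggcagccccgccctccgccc
The Dusp5 stretch lies at chr19:53528895-53529144 (plus strand) and holds a pair of CArG boxes that touch each other, from positions -82 and -72 relative to the start. That of Egr2 lies at chr10:67537619-67537868 (plus strand), with the box from position -72. In Dusp1, at chr17:26508473-26508722 (minus strand), the CRE begins at -143, and in Dusp8, at chr7:142095285-142095534 (minus strand), CREs begin at -107 and -63. A match is a string of letters and not a measured binding site, and the absence of a match in the other members says only that these letters are not in this window.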

How the data were processed

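The authors deposited per-transcript tables for 3 TKO-2i and 3 TKO-serum samples with estimated counts, TPM and effective length in each; the deposited estimated counts divide reads between transcripts, and the deposited TPM are scaled by effective length and to the same sum in each sample. The quantifier and its index are not given in the sources used here, and the labels give the build mm10. Estimated counts and TPM were summed per gene with GENCODE M21, which matched 99.86% of transcripts in each sample. TKO-2i was compared with TKO-serum by edgeR 4.0.16 (quasi-likelihood test, filterByExpr, TMM, Benjamini-Hochberg) in R 4.3.3 on rounded sums. CPM are counts over the TMM-normalized library size, and floors and intervals cover counting error only.

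Members called at 2-fold or more and the most abundant member of each class by TPM were given in every sample, with up to 3 called genes in each direction from every other list, and Map2k1, Map2k2 and Mapk3. Members and lists were chosen with earlier results of these data known. The alternatives tried were DESeq2 1.42.0 in place of edgeR and its size factors within edgeR. The low-count filter was dropped, or set to at least 10 counts per sample. Length-scaled TPM replaced the counts, and limma 3.58.1 was run on log2 TPM with pseudocounts of 1 and 0.1. Further fits took protein-coding genes alone, a replicate block, or each set of 5 samples. Tables and plots used Python 3.11.15 with pandas 2.3.3, numpy 2.4.6, scipy 1.17.1 and matplotlib 3.10.9.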

Additional observations from a re-analysis of the deposited data

How the results depend on the processing

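Over all alternatives 7 to 11 members were higher in TKO-2i and 23 to 29 lower. With limma on log2(TPM + 1) 14 members passed 2-fold, 1 higher and 13 lower, in place of 23, 3 and 20, and the median log2 fold change of tested members was -0.44 in place of -0.68. A pseudocount of 1 TPM shrinks fold changes of low genes by construction. The other alternatives gave 2 or 3 members higher and 16 to 21 lower at 2-fold or more. With counts from length-scaled TPM the median was -0.59. Leaving out each sample in turn gave medians from -0.79 to -0.59. With the replicate block 11 members were higher, 28 lower and 23 past 2-fold, with a median of -0.67. Of the 37 called members 32 had the same direction and stayed called under every alternative that gave them a value, and none reversed. The exceptions were Dusp18, Dusp19, Egr2, Spred3 and Spry2, and Dusp7, Dusp12, Dusp16 and Ier2 gained a call under at least 1 alternative; the cause was not tested. Of 125 tested genes of the other lists 17 lost and 21 gained a call under at least 1 alternative, and none reversed. Depth limits Egr2, Egr3, Egr4, Fosl1, Fosb, Dusp2, Dusp15, Dusp23 and Dusp26, which had under 20 counts in at least 1 TKO-2i sample, and Dusp21, which had 0 counts in all samples.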
